A study of Mus musculus with 45 samples.

Results

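Genes of antigen presentation by the major histocompatibility complex (MHC) were examined in 45 mammary tumours. They were chosen by name rather than by a cut on measured values, but with earlier results of these data known. The list took every gene whose single symbol on the array begins with H2-, the mouse MHC prefix. It added 19 genes that load, trim or carry the presented peptides or that regulate the MHC genes. This gave 52 of the 18820 genes with a single symbol, 33 H2- genes and all 19 listed genes. Of these, 38 exceeded 5.67 (log2), the median of the whole table, in 8 or more tumours and were tested; the other 14 are given by their range. The class I side held 37 genes, 26 of them tested, and the class II side 12, of which 10 were tested. Cd1d1, which encodes a lipid-presenting class I-like molecule, and H2-Ke6, an MHC-linked gene of steroid metabolism named for its position, were kept apart with the pseudogene H2-K2.

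All tumours grew from Trp53-null BALB/c mammary fragments transplanted to inguinal fat pads whose own epithelium had been removed at 3 weeks, in wild-type BALB/c females then aged 10 weeks. Hosts had received silicon ions or a sham procedure 3 days before, so that the tumour tissue itself was not exposed, and tumours were removed at 1 cm3 during a follow-up of 600 days. Tumours numbered 18 from sham hosts, 9 from hosts given 10 cGy, 10 from hosts given 30 cGy and 8 from hosts given 80 cGy. Each was measured on an array of its own, and the deposited values are log2 expression after RMA, which subtracts background, equalizes the distributions of the arrays and sums up the probes of a probe set. Every tumour lacks Trp53, and a whole tumour holds host stroma and immune cells as well as transplant-derived epithelium. In such bulk samples, fewer cells of a type and less RNA per cell cannot be told apart. The labels do not say how many fragment donors or hosts there were, so p-values measure the spread between these tumours.

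MHC class I molecules display peptides from inside the cell on nearly all nucleated cells. The proteasome, with its interferon-inducible subunits Psmb8, Psmb9 and Psmb10, cuts the peptides, the Tap1-Tap2 transporter carries them into the endoplasmic reticulum, and Erap1 trims them there before they are loaded onto a heavy chain bound to B2m. MHC class II molecules display peptides from endosomes, mainly on dendritic cells, B cells and macrophages; Cd74 is their invariant chain, Ctss cuts it, Ifi30 reduces disulfide bonds of the antigen, and H2-DM exchanges the peptide. Nlrc5 is the transactivator of class I genes and Ciita that of class II genes, and both act through a shared promoter module that contains an X2 box, bound by CREB family proteins, and a Y box, bound by NF-Y at CCAAT or its complement ATTGG.

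The promoters of 5 members are shown because these genes belong to the groups that varied together over the tumours. Each line gives the 250 bases before the start site from RefSeq, build GRCm38.p6, 5′ to 3′ on the gene's own strand; capitals mark every match to the motifs named below the sequences, on either strand.
B2m (chr2:122147437-122147686, + strand): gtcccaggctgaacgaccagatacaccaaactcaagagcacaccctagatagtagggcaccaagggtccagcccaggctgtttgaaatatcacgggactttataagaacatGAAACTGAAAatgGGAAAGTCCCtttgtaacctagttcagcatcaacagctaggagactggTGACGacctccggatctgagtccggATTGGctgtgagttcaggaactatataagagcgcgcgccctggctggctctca
H2-K1 (chr17:34000334-34000583, - strand): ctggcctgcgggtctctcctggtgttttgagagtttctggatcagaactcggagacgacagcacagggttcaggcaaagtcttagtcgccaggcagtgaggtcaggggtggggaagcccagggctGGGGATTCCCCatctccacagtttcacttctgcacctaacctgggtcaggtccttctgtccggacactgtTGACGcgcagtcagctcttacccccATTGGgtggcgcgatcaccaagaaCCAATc
H2-Aa (chr17:34287824-34288073, - strand): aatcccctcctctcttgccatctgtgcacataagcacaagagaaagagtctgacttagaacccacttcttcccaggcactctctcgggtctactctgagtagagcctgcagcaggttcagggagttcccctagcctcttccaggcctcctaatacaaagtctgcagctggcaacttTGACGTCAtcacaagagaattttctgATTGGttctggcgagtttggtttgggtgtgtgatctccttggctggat
H2-Eb1 (chr17:34305617-34305866, + strand): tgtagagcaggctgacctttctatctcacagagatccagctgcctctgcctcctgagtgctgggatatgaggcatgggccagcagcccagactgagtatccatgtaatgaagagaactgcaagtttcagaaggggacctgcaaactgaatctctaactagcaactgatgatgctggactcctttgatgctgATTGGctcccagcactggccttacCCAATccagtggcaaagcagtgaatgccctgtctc
Tap1 (chr17:34187306-34187555, + strand): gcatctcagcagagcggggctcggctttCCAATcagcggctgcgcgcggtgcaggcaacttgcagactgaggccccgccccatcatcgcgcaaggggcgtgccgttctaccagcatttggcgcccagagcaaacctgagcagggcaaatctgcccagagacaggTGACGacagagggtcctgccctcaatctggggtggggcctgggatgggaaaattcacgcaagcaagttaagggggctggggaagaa
The reference genome is of the C57BL/6 strain, whose MHC haplotype differs from that of BALB/c, so the letters may differ in these tumours. The motifs marked were CCAAT for the Y box, TGACG and its palindrome TGACGTCA for the X2 box, GAAA followed after any 2 bases by GAAA for interferon response elements, and, for kappa B sites, GGGG followed after any 2 bases by TCCCC and GGG followed after any 2 bases by TTTCC; a TGACGTCA match always holds TGACG too. Windows of 300 bases, from 250 before to 50 after the start, were searched for 38 members, 25 of them among the genes tested. CCAAT stood in 71.4% of 21 windows of tested class I genes and 57.1% of 7 windows of tested class II genes, against 37.4% of all 32851 windows. These 21 and 7 windows belong to 18 and 6 genes. Over all 42 windows of members, tested or not, the share was 71.4% too, so it did not set the tested genes apart. TGACG stood in 47.6% of the class I windows, 28.6% of the class II windows, 38.1% of the 42 member windows and 20.8% of all windows. TGACGTCA stood in 1.79% of all windows, that of H2-Aa included. The spaced GAAA pair was found in 19.0% of the class I windows, those of B2m, Erap1, H2-T23 and Psme1, and in 3.44% of all windows. The windows of H2-K1, H2-Q6 and Calr held the first kappa B motif, which stood in 0.432% of all windows, and that of B2m the second, which stood in 1.63%. In B2m the first letters of TGACG and ATTGG lay 78 and 53 bases before the start, 25 bases apart. The same pair lay 25 bases apart in H2-K1 and H2-M3 and 26 apart in H2-Aa. A spacing of 24 to 27 bases, searched for after these windows had been seen, occurred in the windows of these 4 genes among the members and in 0.237% of all windows. In Tap1, TGACG lay 86 bases before the start and CCAAT 222 bases before it. The window of Tap1 overlaps that of Psmb9, which is read from the other strand, by 275 bases, and their start sites lie 226 bases apart. A match is a run of letters and does not by itself mark a bound site.

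Class I genes differed in how far they spread over the 45 tumours. B2m, the light chain of all class I molecules, had the narrowest spread of the class I side, 12.25 to 12.97 with a median of 12.73 and an SD of 0.17 on the log2 scale. Calr (SD 0.19), a chaperone of heavy chain folding, was the next narrowest. H2-K1, a classical heavy chain, ran from 9.32 through a median of 10.53 to 11.22, a span of 3.74-fold. The transporter gene Tap1 spanned 6.04-fold, from 7.57 through 8.88 to 10.16, and Tap2 5.62-fold, from 7.32 through 8.40 to 9.81. Psmb9 ran from 7.26 through 8.10 to 9.60, Psmb8 from 7.96 through 8.74 to 9.89 and Psmb10 from 6.79 through 8.15 to 9.23. Nlrc5 spanned 7.26-fold, from 7.46 through 8.86 to 10.32. Each of these genes exceeded the table median in all 45 tumours.

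The largest SDs on the class I side belonged to H2-M2 (1.12), H2-M9 (0.90) and H2-Q6 (0.71), all non-classical heavy chains. H2-M2 was above the table median in 8 tumours. Its highest values were 8.54 in 80 cGy replicate 7, 8.13 in sham replicate 12 and 7.62 in 10 cGy replicate 2, against a median of 4.47, and these tumours came from 3 different host groups. Those same 3 tumours had Cd74 at 12.06, 12.18 and 12.21 and H2-K1 at 11.03, 11.07 and 11.08, near the top of both genes' ranges. H2-M9 ran from 5.07 through 6.24 to 9.44. Its highest values were in sham replicate 16 (9.44) and 10 cGy replicate 1 (9.03), and these were also the pair of tumours most alike over all genes tested (r = 0.98, against a median of 0.86 over all pairs). Both stood high in the endothelial gene Pecam1, at 12.16 and 12.19. Over the 45 tumours r of H2-M9 with Pecam1 was 0.77, with the endothelial cadherin gene Cdh5 0.78 and with the VEGF receptor gene Kdr 0.67; without those 2 tumours it was 0.54, 0.60 and 0.26. The part of endothelial cells in the H2-M9 level was not tested.

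Class II genes had the larger SDs, as a description. The median SD was 0.67 over the 10 class II genes tested and 0.49 over the 26 class I genes, beside 0.43 over all 12123 genes tested. The widest were the chain genes H2-Aa (SD 0.75), H2-Eb1 (0.75) and H2-Ab1 (0.73), and the narrowest were H2-Ob (0.41), a chain of the H2-O inhibitor of peptide exchange, and Ifi30 (0.44). Cd74 ran from 9.75 through 11.32 to 12.21, a span of 5.51-fold. H2-Aa ran from 7.92 through 9.63 to 10.95, H2-Eb1 from 8.09 through 9.81 to 11.26 and H2-Ab1 from 7.13 through 8.82 to 9.94. H2-Ea, the partner chain of H2-Eb1, ran from 8.51 through 10.19 to 11.30; RefSeq lists it as a transcribed pseudogene in the reference strain, and BALB/c mice are known to make the E molecule. Ciita ran from 4.82 through 5.84 to 7.12 and passed the table median in 29 tumours.

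Among the members, 14 did not reach the filter. Of these, 11 were non-classical class I genes of the H2-M, H2-Q and H2-T groups, namely H2-M1, H2-M5, H2-M10.1 to H2-M10.6, H2-M11, H2-Q10 and H2-T3, with values between 2.57 and 5.59. H2-Eb2 lay between 3.46 and 4.45. H2-Oa, the partner of H2-Ob, lay between 4.32 and 7.36 and passed the table median in 3 tumours, and the pseudogene H2-K2 between 4.07 and 6.16. Some heavy chain genes of the H2-Q and H2-T groups are closely related and differ between strains, so that their probe sets may read each other's transcripts, which was not tested; r was 0.99 between H2-T9 and H2-T10 and 0.97 between H2-Q6 and H2-Q8. Of the other probe sets, 7 carry an H2- symbol beside other symbols and were left out, and H2-D1, another classical heavy chain gene, was not analysed here for that reason.

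**Figure D1:**
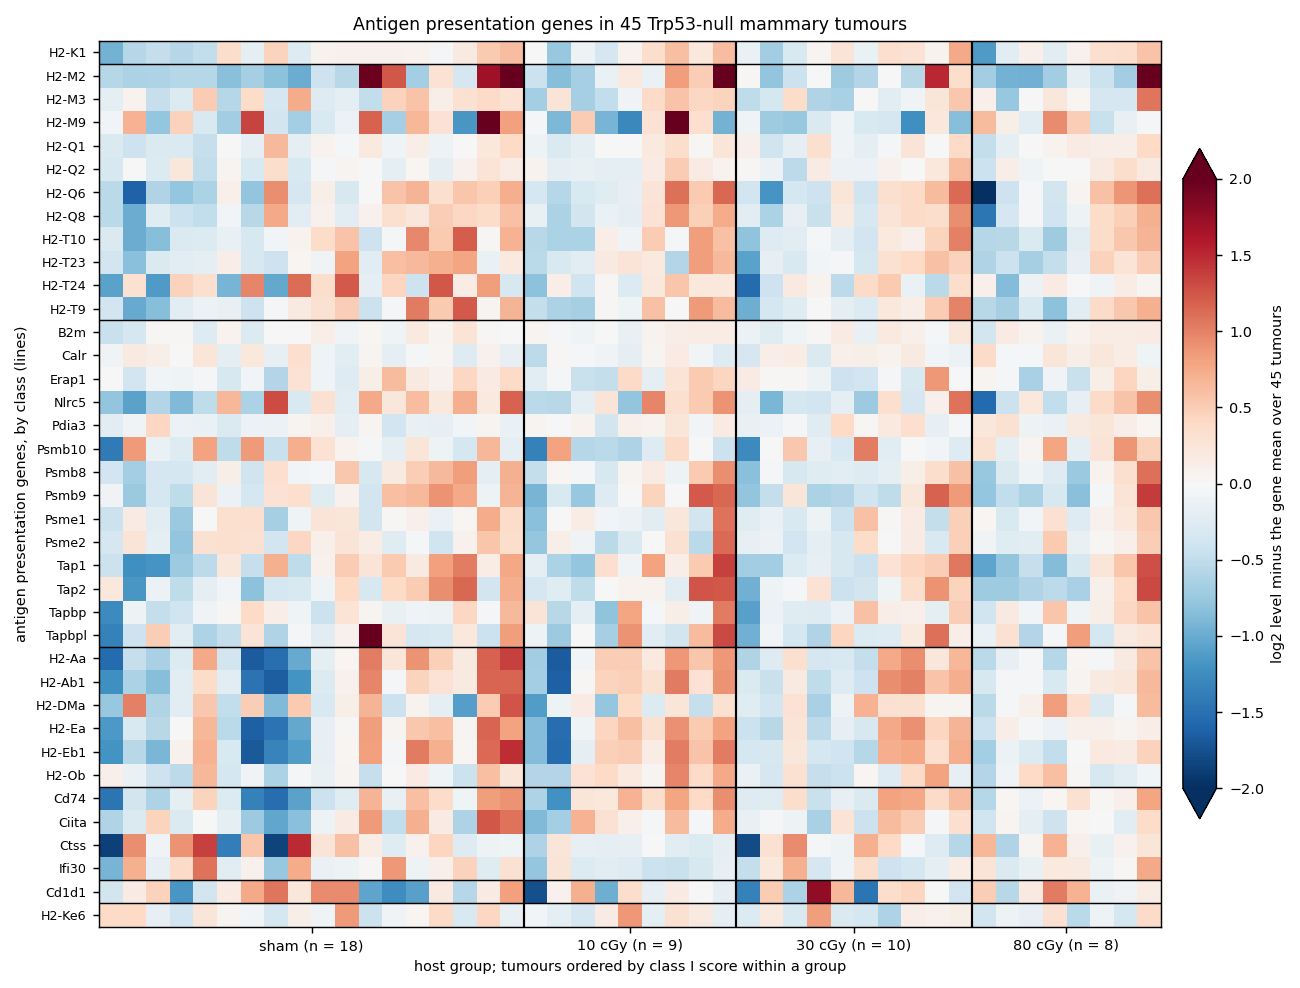
Log2 level minus the gene's mean over 45 tumours (colour, cut at 2 above and below) for the 38 genes tested, by class (horizontal lines), in tumours of the 4 host groups (vertical lines), ordered within a group by the mean deviation of the class I genes. Within every group tumours range from low to high in both classes, and H2-Aa, H2-Ab1, H2-Ea and H2-Eb1 form a block with Cd74 and Ciita.

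The class I genes did not all vary together. The level of Nlrc5 followed that of H2-K1 with r = 0.82 (rho = 0.84), Tap1 with r = 0.84 (rho = 0.82), B2m with r = 0.69 (rho = 0.68) and Psmb9 with r = 0.62 (rho = 0.58). Each of these 4 pairs passed a two-sided permutation test with 100000 resamples, adjusted over a family of 31 pairs (adjusted p = 3.1e-05 for the first 3 and 5.64e-05 for Psmb9, resting on raw p-values at or next to 1e-05, the smallest that the resamples can give). Taken within host groups, r of Nlrc5 with H2-K1 was 0.87 (sham), 0.63 (10 cGy), 0.85 (30 cGy) and 0.98 (80 cGy). It was 0.79 without the 2 tumours farthest from the Nlrc5 median. The array holds 19 probe sets for Nlrc5, whose pairwise r ran from 0.61 to 0.98, and r with H2-K1 lay between 0.59 and 0.82 over them.

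Psmb9 and Psmb8, the inducible proteasome subunits encoded beside the transporter genes, correlated with r = 0.86 (rho = 0.82), and Psmb9 with Tap1, whose promoter window it shares, with r = 0.78 (rho = 0.75); both had an adjusted p of 3.1e-05. Tap2 had r = 0.87 with both Psmb8 and Psmb9 and 0.80 with Tap1, as a description. The inducible subunits did not track the constitutive subunits that they replace. The r was 0.059 for Psmb9 with Psmb6 (adjusted p = 0.724), -0.13 for Psmb8 with Psmb5 (adjusted p = 0.458) and 0.11 for Psmb10 with Psmb7 (adjusted p = 0.535). Psme1 and Psme2, the subunits of the proteasome activator PA28, had r = 0.88 with each other. Their r with the mean deviation of the rest of the class I side was 0.47 and 0.45, against 0.84 for Tap1, 0.80 for Psmb8 and 0.77 for H2-K1.

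The 4 class I genes least like the rest of their side were picked by their r. The r with the mean deviation of the other class I genes was 0.0033 for Pdia3, the thiol oxidoreductase of the peptide-loading complex, 0.037 for H2-M9, 0.13 for Psmb10 and -0.15 for Calr. Psmb10 ran instead with markers of leukocytes, and so did Calr, though less than with helper genes of the endoplasmic reticulum and endosome. With the mean level of those helper genes r was 0.61 for Psmb10 and 0.73 for Calr. With a list of epithelial genes it was -0.62 and -0.56. The r with the mean level of the leukocyte genes Ptprc, Lcp1, Coro1a and Laptm5 was 0.74 for Psmb10 and 0.63 for Calr, and with the macrophage genes Csf1r, Adgre1, Itgam, Cd68 and C1qa it was 0.72 and 0.62. H2-T24, a non-classical heavy chain gene, was alike, with 0.66 and 0.62. For Tap1 the corresponding values were -0.29 and -0.42, and for H2-K1 -0.15 and -0.34. For the mean deviation of the class I genes they were 0.07 and -0.13. Its r was higher with other immune lists, 0.55 with the T cell genes Cd3e, Cd3g, Cd8a and Cd4. With the dendritic cell genes Itgax and Cd209a it was 0.37. These values share their libraries and are descriptions without a test.

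**Figure D2:**
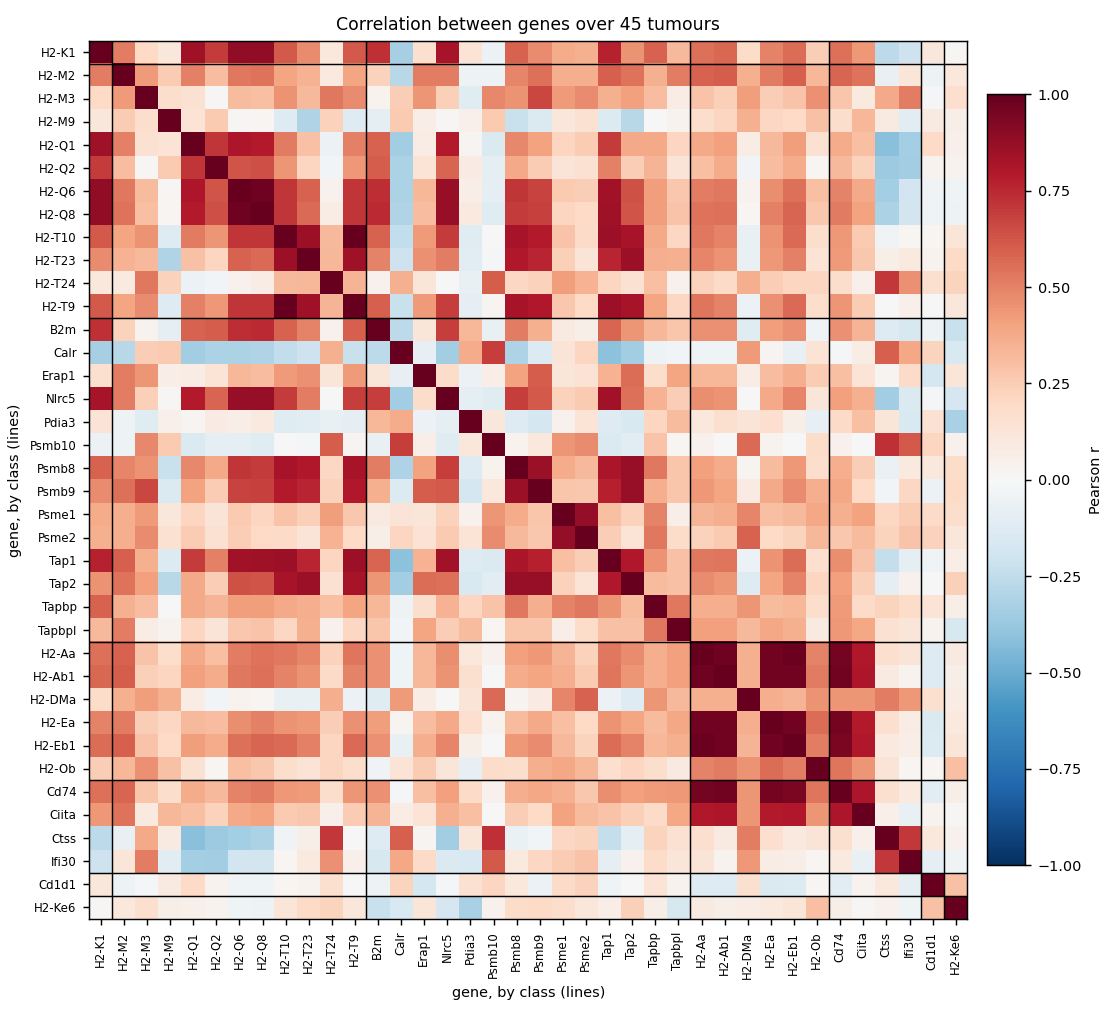
Pearson r between each pair of the 38 genes over 45 tumours (colour), ordered by class (lines). H2-K1, H2-Q6, H2-Q8, Nlrc5 and Tap1 have r of 0.77 to 0.97 with one another, Tap1, Tap2, Psmb8, Psmb9, H2-T9 and H2-T10 of 0.78 to 0.99, H2-Aa, H2-Ab1, H2-Ea, H2-Eb1, Cd74 and Ciita of 0.80 to 0.98, and Psmb10, Calr, H2-T24, Ctss and Ifi30 of 0.36 to 0.73.

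The class II genes held a tight core and a loose remainder. Cd74 had r = 0.95 with H2-Aa, 0.96 with H2-Ab1, 0.94 with H2-Eb1 and 0.95 with H2-Ea, as a description. Ciita correlated with Cd74 (r = 0.81, rho = 0.80), H2-Aa (0.80, 0.78), H2-Ab1 (0.81, 0.79) and H2-Eb1 (0.80, 0.78), each with an adjusted p of 3.1e-05 by permutation test. With H2-DMa, a chain of the peptide-exchange molecule, Ciita had r = 0.44 (rho = 0.37, adjusted p = 0.00509). The r of Ciita with Cd74 was 0.81 to 0.84 within each of the 4 host groups. Ctss and Ifi30, the endosomal enzymes, were not part of this core: their r with the mean deviation of the other class II genes was 0.25 and 0.21, while r between them was 0.70.

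Leukocyte markers ran with Ctss. Ptprc, which encodes the leukocyte antigen CD45, correlated with Ctss (r = 0.85, rho = 0.75, adjusted p = 3.1e-05). Within host groups this r was 0.92 (sham), 0.39 (10 cGy), 0.92 (30 cGy) and 0.66 (80 cGy). Over all tumours r of Ptprc was 0.29 with Cd74 (rho = 0.20, adjusted p = 0.0877) and 0.29 with H2-Aa (rho = 0.20, adjusted p = 0.0873). With Ciita it was 0.26 (rho = 0.17, adjusted p = 0.131), and none of these passed the threshold. As deviations from the first component of the probe sets with no gene symbol, an alternative chosen after seeing the data, Cd74 and Ciita did pass, with r of 0.34 for both (adjusted p = 0.0364 and 0.0378). At 80 cGy r of Ptprc was -0.32 with Cd74, -0.59 with H2-Aa and -0.67 with Ciita, opposite in sign to the other groups. Whether r differs between Ctss and Cd74 was not tested. Against the macrophage list, r was 0.91 for Ctss, 0.66 for Ifi30 and 0.014 for Cd74. Against the T cell genes Cd3e, Cd3g, Cd8a and Cd4 it was 0.33, 0.27 and 0.50, and against the dendritic cell genes Itgax and Cd209a it was 0.36, 0.13 and 0.53. H2-DMa took a middle place, with r = 0.69 for the leukocyte list and 0.63 for the T cell list, and H2-Ob had its highest values with the T cell list (0.68) and the B cell gene Cd79b (0.67). The dendritic cell genes Flt3, Zbtb46, Xcr1 and Clec9a, the B cell genes Cd79a and Ms4a1 and the T cell gene Cd3d did not reach the filter. The part of these cell types in the class II levels was not tested.

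Single tumours show the separation. The 5 lowest Cd74 values were 9.75 in sham replicate 11, 9.81 in sham replicate 18, 9.92 in sham replicate 13, 10.07 in 10 cGy replicate 9 and 10.20 in sham replicate 5. In that order Ptprc was 7.71, 7.72, 9.69, 9.00 and 10.12, and Ctss was 8.25, 8.24, 10.66, 10.34 and 11.59. Sham replicate 5 thus had the highest Ptprc and Ctss of all 45 tumours while H2-Aa was 8.59 and Ciita 5.04. Sham replicate 11, low in Cd74, had the highest Nlrc5 of all tumours, 10.32, and H2-K1 at 10.90. In that tumour the transactivator of class I stood at the top of its range and class II genes near the bottom of theirs. The class I side as a whole was not high there. The mean deviation was -0.018 for its class I genes and -1.27 for its class II genes. B2m was 12.69, against a median of 12.73 over all tumours.

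Between the classes the relation was moderate. H2-K1 and H2-Aa correlated with r = 0.55 (rho = 0.57, adjusted p = 0.000207) and B2m with Cd74 with r = 0.46 (rho = 0.42, adjusted p = 0.00353). For the transactivators Nlrc5 and Ciita, r was 0.35 (rho = 0.39, adjusted p = 0.0296). After shifting all arrays to a common median the last fell to 0.29 with an adjusted p of 0.0898, past the threshold no longer. The median r over pairs of genes was 0.32 within the class I side (325 pairs), 0.45 within the class II side (45 pairs) and 0.30 between the sides (260 pairs), beside 0.014 over all pairs of the 12123 genes tested.

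Epcam, a gene of epithelial adhesion, ran with the class I genes Tap1, B2m and Nlrc5 to a lesser degree. Its r was 0.43 with Tap1 (rho = 0.36, adjusted p = 0.0073), 0.42 with B2m (rho = 0.44, adjusted p = 0.00883) and 0.37 with Nlrc5 (rho = 0.34, adjusted p = 0.0239). With the class II genes Cd74 and Ciita it was 0.17 and 0.16 (adjusted p = 0.339 and 0.359). At 10 cGy, r of Epcam with B2m was -0.31 and with Nlrc5 -0.070, opposite in sign to the other 3 groups. On arrays shifted to a common median r with B2m was 0.25 (adjusted p = 0.132) and with Nlrc5 0.33 (adjusted p = 0.0554), neither past the threshold. Without the tumours high in muscle or fat genes, a setting chosen after seeing the data, r with Nlrc5 was 0.35. It did not pass the threshold there either (adjusted p = 0.070 by permutation test). Epcam itself had a long tail of low values, from 4.80 through a median of 10.97 to 11.97. The mean level of a list of epithelial genes that includes Epcam had r of 0.45 with Tap1 and 0.39 with Nlrc5. With B2m this list had r of 0.29, with H2-K1 0.18 and with the mean deviation of the class I genes 0.15. At 10 cGy the last was -0.11. The values for the list are descriptions without a test. Ptprc had r of -0.18 with Tap1, -0.21 with Nlrc5 and -0.097 with B2m, none past the threshold. In that order r was 0.46, 0.73 and 0.48 at 10 cGy and -0.59, -0.46 and -0.58 at 80 cGy. Irf1, a transcription factor induced by interferon-gamma, had r of 0.10 with Nlrc5 and 0.0091 with Ciita (adjusted p = 0.558 and 0.952). The mean level of a list of interferon-gamma and MHC regulators, Irf1 among them, had r of 0.13 with Nlrc5 and 0.19 with Ciita. With the mean deviation of the class I genes r of this list was 0.49, and with that of the class II genes 0.47. These values of the regulator list carry no test.

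**Figure D3:**
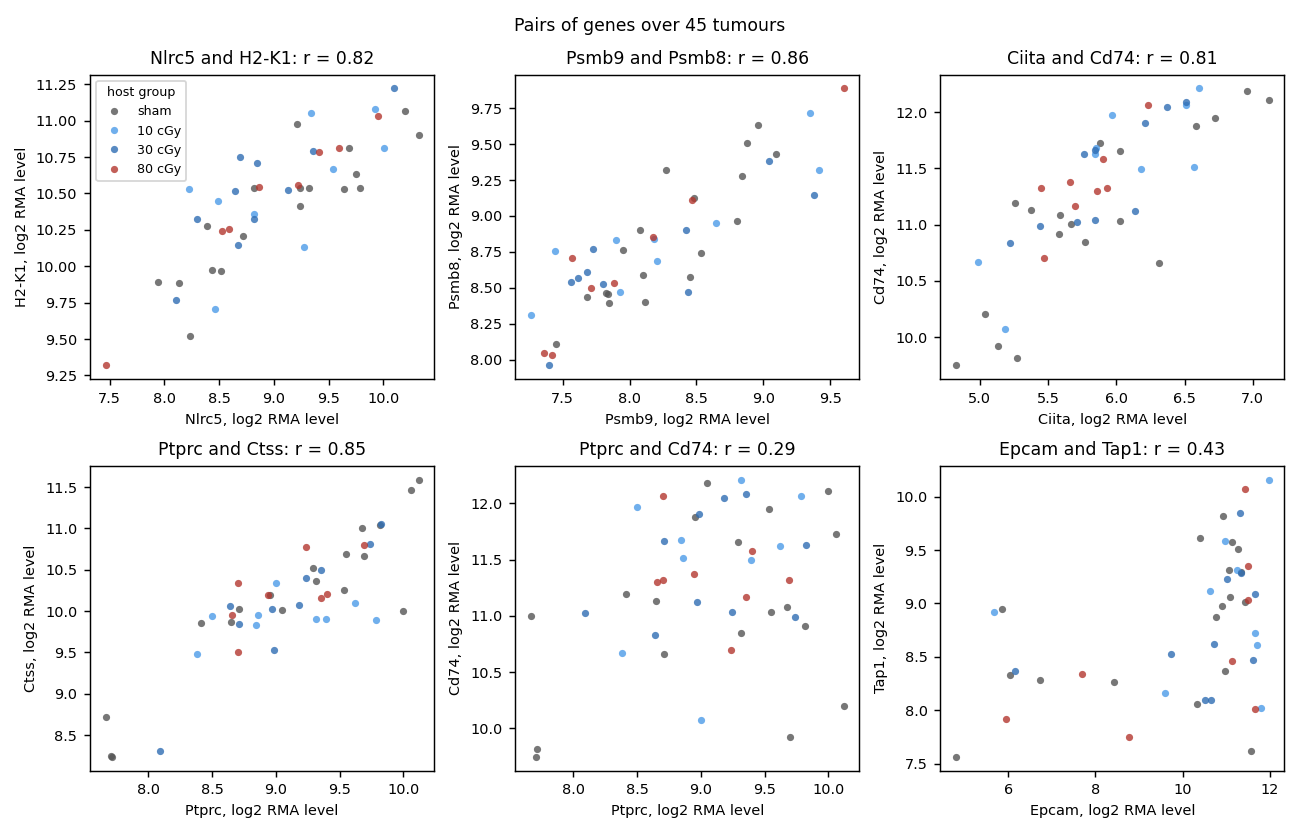
Log2 RMA levels of 6 pairs of genes, 1 point per tumour, coloured by host group. The pairs Nlrc5 with H2-K1, Psmb9 with Psmb8, Ciita with Cd74 and Ptprc with Ctss rise together (r of 0.81 to 0.86), Ptprc and Cd74 scatter (r = 0.29) with low Cd74 at both ends of Ptprc, and Epcam has a long tail of low values.

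Among genes outside the list, the 10 with the highest r to the mean deviation of the class I genes were Phf11d (0.77), Oasl2 (0.76), Gm12250 (0.76), Gbp8 (0.75), Xaf1 (0.74), Trafd1 (0.73), 9330175E14Rik (0.73), Csprs (0.72), Irf9 (0.71) and Oas3 (0.71). Oasl2 and Oas3 belong to the oligoadenylate synthetase family, Gbp8 to the guanylate-binding proteins, and Irf9 is a subunit of the factor that type I interferon activates. For the class II genes they were Slamf8 (0.73), Gpr141 (0.72), Grap2 (0.71), Itgal (0.64), Tnfrsf14 (0.64), Agap2 (0.62), Ifngr2 (0.62), Cd3g (0.61), I830077J02Rik (0.61) and Itgax (0.60). Itgal and Itgax encode leukocyte integrins, Cd3g a chain of the T cell receptor complex and Ifngr2 a chain of the interferon-gamma receptor. The median r over the 12085 other genes tested was -0.0040 and -0.016. These lists are picked by their values and carry no test.

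Host irradiation was then compared with sham. Limma called none of the 38 genes at an adjusted p under 0.05 in tumours of Si hosts (the unweighted mean of the 3 doses) against sham, where it called 0% of the 12123 genes tested. At an unadjusted p under 0.05 there was 1 member, Pdia3, and 5.82% of all genes tested (3.51% higher and 2.32% lower). The median log2 difference was -0.020 over the 26 class I genes and 0.12 over the 10 class II genes, beside 0.011 over all genes tested. Of the class I genes 11 lay above 0 and 15 below, and of the class II genes 7 above and 3 below. The comparisons of each dose with sham use the same 18 sham tumours and are not independent of each other or of this one.

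Class I levels overlapped between all host groups. H2-K1 ran from 9.52 through a median of 10.53 to 11.07 in tumours of sham hosts, from 9.70 through 10.53 to 11.08 at 10 cGy, from 9.77 through 10.52 to 11.22 at 30 cGy and from 9.32 through 10.55 to 11.03 at 80 cGy. Its difference, Si minus sham, was 0.09 ± 0.13 (SE; 95% interval -0.18 to 0.36). The 4 medians lay closer together than any 1 group's spread.

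B2m ran from 12.25 through 12.71 to 12.97 in sham, from 12.54 through 12.75 to 12.85 at 10 cGy, from 12.45 through 12.70 to 12.92 at 30 cGy and from 12.33 through 12.81 to 12.87 at 80 cGy. The difference was 0.06 ± 0.06 (95% interval -0.06 to 0.18), with 19 of 27 tumours of Si hosts above the sham mean. Every dose group lay inside the range of sham.

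Nlrc5 ran from 7.94 through 9.23 to 10.32 in sham, from 8.23 through 9.27 to 10.00 at 10 cGy, from 8.11 through 8.75 to 10.10 at 30 cGy and from 7.46 through 9.04 to 9.95 at 80 cGy. The difference was -0.11 ± 0.21 (95% interval -0.52 to 0.31). All 19 Nlrc5 probe sets had differences below 0, from -0.19 to -0.07, but they read 1 gene in the same tumours.

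Tap1 ran from 7.57 through 8.96 to 9.82 in sham, from 8.02 through 8.92 to 10.16 at 10 cGy, from 8.09 through 8.58 to 9.85 at 30 cGy and from 7.75 through 8.40 to 10.08 at 80 cGy. The medians were lowest at 80 cGy, yet the highest value of that group exceeded all sham tumours. The Si minus sham difference was -0.03 ± 0.20 for Tap1, -0.01 ± 0.19 for Tap2 and 0.12 ± 0.14 for Tapbp, the tapasin gene that bridges transporter and heavy chain.

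Psmb9 ran from 7.45 through 8.20 to 9.09 in sham, from 7.26 through 8.18 to 9.42 at 10 cGy, from 7.40 through 7.76 to 9.38 at 30 cGy and from 7.36 through 7.79 to 9.60 at 80 cGy. Its difference was -0.16 ± 0.19 (95% interval -0.54 to 0.22), and the groups overlapped over nearly the whole range. The difference was -0.08 ± 0.14 for Psmb8, -0.07 ± 0.17 for Psmb10 and -0.04 ± 0.11 for Erap1. An effect of 0.5 log2 on H2-K1, B2m or Erap1 would lie outside these intervals, whereas for Nlrc5 and Psmb9 a fall of that size would not.

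Pdia3 had the smallest p of the 38 genes. It ran from 11.39 through 11.65 to 12.18 in sham, from 11.40 through 11.83 to 12.02 at 10 cGy, from 11.52 through 11.74 to 12.17 at 30 cGy and from 11.63 through 11.92 to 12.07 at 80 cGy. The groups overlapped, with 20 of 27 tumours of Si hosts above the sham mean. The Si minus sham difference was 0.13 ± 0.06, a ratio of 1.10 (unadjusted p = 0.0338, adjusted p = 0.830), and it did not pass.

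Class II genes also overlapped between groups. Cd74 ran from 9.75 through 11.06 to 12.18 in sham, from 10.07 through 11.62 to 12.21 at 10 cGy, from 10.83 through 11.37 to 12.09 at 30 cGy and from 10.70 through 11.32 to 12.06 at 80 cGy. All 4 groups reached about the same upper end, and the 3 lowest values were in sham. The difference was 0.36 ± 0.19, a ratio of 1.29, with a 95% interval of -0.03 to 0.75 and 20 of 27 tumours above the sham mean (unadjusted p = 0.0666, adjusted p = 0.886). Against the sham tumours whose description code starts with 5 (n = 10) it was 0.18 and against those whose code starts with 6 (n = 8) it was 0.59; the labels do not say what the digit stands for.

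H2-Aa ran from 7.93 through 9.52 to 10.95 in sham, from 7.92 through 10.08 to 10.46 at 10 cGy, from 8.99 through 9.57 to 10.52 at 30 cGy and from 9.02 through 9.57 to 10.17 at 80 cGy. The sham range contained the 30 and 80 cGy groups entirely. The Si minus sham difference was 0.13 ± 0.23 for H2-Aa, 0.28 ± 0.22 for H2-Ab1, 0.11 ± 0.23 for H2-Eb1 and -0.02 ± 0.17 for H2-DMa. Ciita, the transactivator, ran from 4.82 through 5.72 to 7.12 in sham, from 4.99 through 5.97 to 6.61 at 10 cGy, from 5.22 through 5.84 to 6.51 at 30 cGy and from 5.45 through 5.78 to 6.23 at 80 cGy, with a difference of 0.04 ± 0.16.

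The endosomal enzymes had their lowest group medians at 10 cGy. Ifi30 ran from 9.64 through 10.61 to 11.65 in sham, from 9.78 through 10.29 to 10.82 at 10 cGy, from 10.08 through 10.43 to 11.27 at 30 cGy and from 10.26 through 10.66 to 11.32 at 80 cGy. At 10 cGy, 8 of 9 tumours lay below the sham mean, and all 9 lay inside the sham range. Ctss ran from 8.24 through 10.23 to 11.59 in sham, from 9.48 through 9.91 to 10.34 at 10 cGy, from 8.31 through 10.07 to 11.05 at 30 cGy and from 9.50 through 10.20 to 10.80 at 80 cGy; its difference, Si minus sham, was -0.08 ± 0.22. Against the sham tumours with code 6 the sign of the Si minus sham difference turned for both genes. The difference went from -0.19 to 0.17 for Ifi30 and from -0.08 to 0.46 for Ctss.

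**Figure D4:**
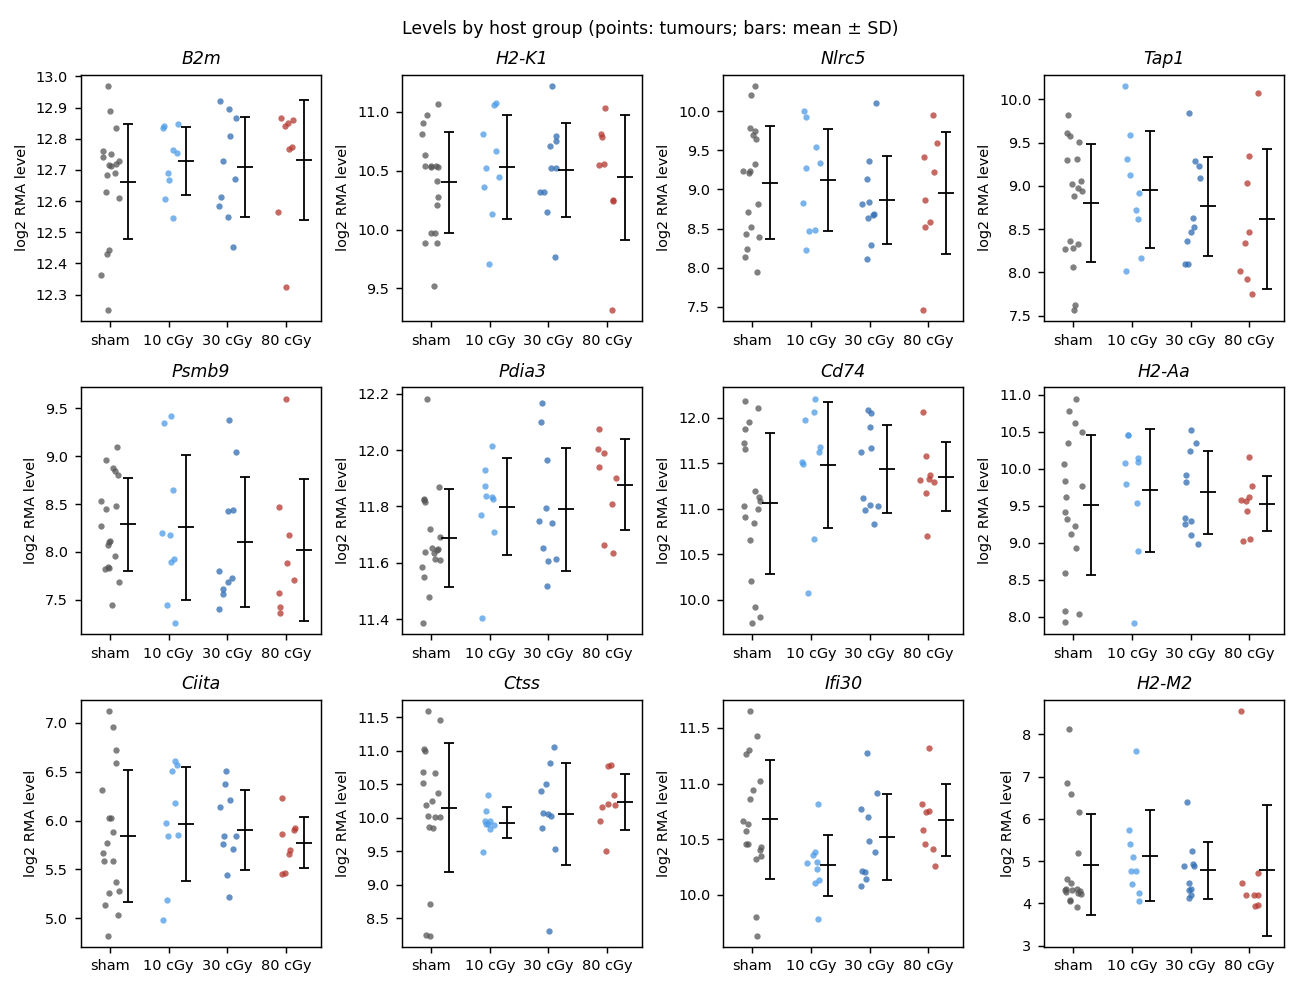
Log2 RMA levels of 12 genes in tumours of the 4 host groups (points), with mean ± SD (bars; n = 18, 9, 10 and 8). The groups overlap for every gene shown, Cd74 and H2-Aa spread more in sham than at 80 cGy, and H2-M2 is near its floor in most tumours with single high values in each group.

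Each dose was next set against sham, and limma again called 0 of the 38 genes, and 0% of all genes tested, for each dose. At 10 cGy, 1 member had an unadjusted p under 0.05, beside 3.65% of all genes tested (2.01% higher and 1.64% lower). It was Ifi30, with a difference of -0.41 ± 0.17 (unadjusted p = 0.0225, adjusted p = 0.991). Against the sham tumours of code 5 this difference was -0.70 and against those of code 6 it was -0.05. The next smallest p-values belonged to H2-Ob (0.29 ± 0.17) and Cd74 (0.42 ± 0.26; 0.24 against code 5 and 0.65 against code 6). All 5 macrophage genes had differences below 0 at that dose, from -0.37 to -0.20, and all 4 T cell genes above 0, from 0.06 to 0.60, none called; their part in the Ifi30 and Cd74 values was not tested.

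At 30 cGy none of the 38 genes reached an unadjusted p under 0.05, which 4.45% of all genes tested did (2.03% higher and 2.43% lower). The smallest p-values were those of H2-M9 (-0.64 ± 0.34, unadjusted p = 0.0711), Cd74 (0.37 ± 0.25; 0.19 against code 5 and 0.60 against code 6) and Pdia3 (0.10 ± 0.08). For H2-M9, 9 of 10 tumours fell short of the sham mean at that dose. Its sham mean includes the 9.44 of sham replicate 16, and all 3 endothelial genes also lay lower at this dose, by -0.34 to -0.14, their part in it not tested.

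At 80 cGy, 1 member, Pdia3 (0.19 ± 0.09, unadjusted p = 0.0325, adjusted p = 0.692), had an unadjusted p under 0.05, beside 6.97% of all genes tested (4.78% higher and 2.19% lower). Calr followed (0.13 ± 0.09), and Tapbp (0.24 ± 0.19). The median difference of the class I genes was 0.035, -0.042 and -0.040 at 10, 30 and 80 cGy, and that of the class II genes 0.20, 0.11 and 0.070. Under the alternative settings other than leaving out single tumours, the class II median ran from -0.013 to 0.35 at 10 cGy, from 0.010 to 0.38 at 30 cGy and from -0.15 to 0.31 at 80 cGy, so that its sign was not kept at 10 and 80 cGy. Over all genes tested it was 0.0083, -0.0032 and 0.033.

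No dose trend was called. A slope on dose had an unadjusted p under 0.05 for 1 member, Pdia3, and for 7.43% of all genes tested (4.94% higher with dose and 2.49% lower), with 0 members and 0% of genes at an adjusted p under 0.05. The F test over the 4 groups called 0 members and 0% of genes; at an unadjusted p under 0.05 it gave 0 members, against 4.13% of all genes tested, and the smallest p was 0.115 for Ifi30. The F test among the 3 doses likewise called 0 members and 0% of genes, with 0 members and 3.98% of genes at an unadjusted p under 0.05 and the smallest p of 0.0868 for Calr.

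**Figure D5:**
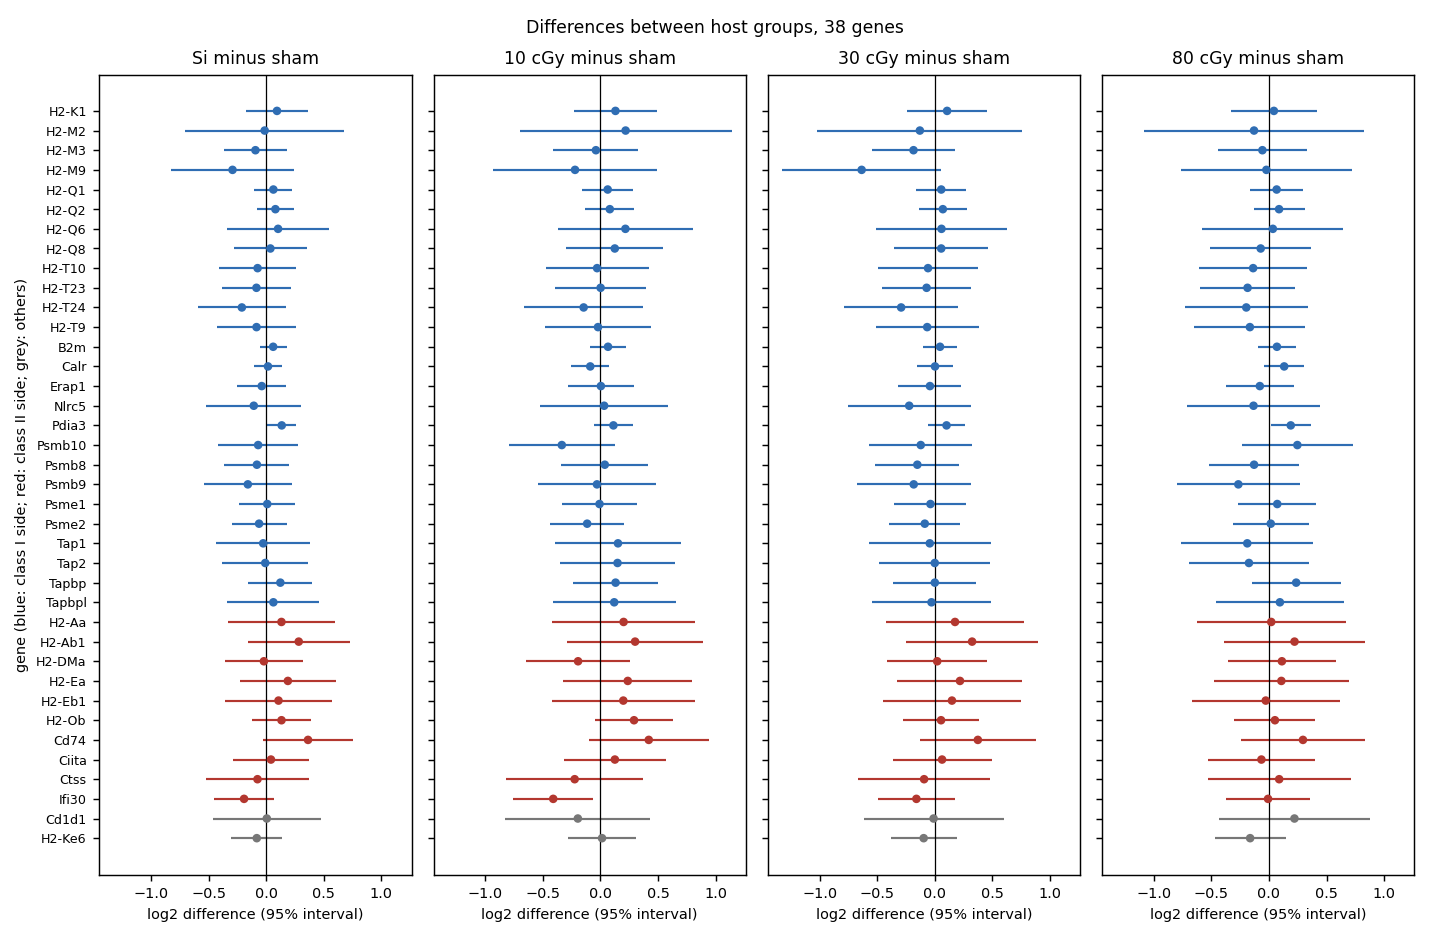
Log2 differences (points) with 95% intervals from limma for the 38 genes, for Si hosts against sham and for each dose against sham (panels), the class I side in blue, the class II side in red and H2-Ke6 and Cd1d1 in grey. All intervals cross 0 except those of Pdia3 in Si and at 80 cGy and of Ifi30 at 10 cGy, before adjustment over 12123 genes.

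The spread of the class II genes differed in size between groups, as a description. The mean deviation of the 10 class II genes had an SD of 0.60 in sham, 0.52 at 10 cGy, 0.37 at 30 cGy and 0.22 at 80 cGy. For the 26 class I genes the SDs were 0.29, 0.37, 0.29 and 0.37. The class II values ran from -1.27 to 0.85 in sham and from -0.31 to 0.45 at 80 cGy. Within sham, every class II gene but Ifi30 (0.41 and 0.44) had a larger SD in the tumours of code 6 than in those of code 5. These SDs were 1.19 and 0.70 for H2-Aa and 0.97 and 0.57 for Cd74, and the part of the codes was not tested. The mean level of the 4 leukocyte genes had SDs of 0.82, 0.38, 0.46 and 0.30 in the same order of groups, and that of the 2 dendritic cell genes 0.71, 0.38, 0.38 and 0.47; their part in the class II spread was not tested, nor was the difference in spread.

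Other genes of the pathway were no more often called. None of the 14 interferon-gamma and MHC regulators, 7 constitutive proteasome genes, 7 helper genes of the endoplasmic reticulum and endosome and 4 costimulation genes that were tested passed in any comparison. Ifng lay between 4.29 and 5.71 and did not reach the filter. At an unadjusted p under 0.05 stood Psme3, the gene of the third PA28 subunit, in Si against sham (0.21 ± 0.10) and at 80 cGy (0.37 ± 0.14), where 5.82% and 6.97% of all genes tested did so. It did so for the slope on dose too (unadjusted p = 0.0191), as did Icam1, which encodes an adhesion molecule (unadjusted p = 0.0219), against 7.43% of all genes tested. The transcription factor genes Creb1 (0.22 ± 0.10) and Irf2 (-0.23 ± 0.11) did so at 10 cGy, the kinase gene Jak1 at 30 cGy (-0.28 ± 0.13) and Icam1 at 80 cGy (-0.78 ± 0.38).

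Some features of the whole series touch these values. The first component of the probe sets with no gene symbol, taken as a measure of the array, held 11.1% of their variance and lay above 0 on 20 arrays, of which 9 were sham tumours, 3 from the 10 cGy group, 6 from 30 cGy and 2 from 80 cGy. H2-K1 followed it with r = -0.58, and r of Nlrc5 with H2-K1 was 0.82 on the arrays above 0 and 0.83 on the others. For Ciita with Cd74 these were 0.70 and 0.86, for Psmb9 with Psmb8 0.82 and 0.92 and for Ptprc with Ctss 0.93 and 0.82. Muscle or fat genes were high in 10 tumours, 4 of them in sham and 4 at 80 cGy. The description codes share a digit and letter in 8 pairs of tumours, which the labels do not explain, and r between the deviations of such a pair from their group means ran from -0.11 to 0.69.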

How the data were processed

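RNA of 45 whole tumours was measured on single-colour Affymetrix arrays. Each probe set has a log2 expression value, which the authors made by RMA with the R package oligo, per the submitters' processing notes, with versions not given in the sources used here. Values ran from 1.34 to 14.06 and array medians from 5.48 to 5.80. Of 35556 probe sets, 21218 carry 1 symbol in the platform annotation, 1881 several and 12457 none; the probe set with the highest mean stood for each of 18820 genes. Only Nlrc5 among the members had several. Genes above 5.67, the table median, in at least 8 tumours were kept (12123). Limma 3.58.1 (R 4.3.3) fitted 4 group means, with contrasts of Si hosts (unweighted mean of 3 doses) and of each dose against sham, a slope on dose and F tests; p-values were Benjamini-Hochberg adjusted over 12123 genes at a threshold of 0.05. On simulated data of the same size, 53.2% of genes shifted by 0.5 log2 and 87.6% of those shifted by 1 were recovered in Si against sham, and 28.8% and 71.2% at 80 cGy against sham. The shifted genes were drawn from all genes tested, with independent values and the same shift at each dose. The median SD was 0.54 over the members tested and 0.43 over all genes tested, so these shares may not hold for the members. Array background and the number of arrays limit precision. Correlations (scipy 1.17.1, numpy 2.4.6, pandas 2.3.3) used two-sided permutation tests with 100000 resamples on 31 pairs.

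Members, lists and tests were chosen with earlier results of these data known. Genes named with values were H2-K1, B2m, Nlrc5, Tap1, Tap2, Tapbp, Psmb8, Psmb9, Psmb10, Erap1, H2-Aa, H2-Ab1, H2-Eb1, H2-DMa, Cd74, Ciita, Ctss and Ifi30, the 3 members with the smallest p per contrast, the 3 largest and 2 smallest SDs per class, and the 10 other genes closest to each class mean; others were singled out after their values were seen. Cell type lists were read by their mean log2 level over kept genes. Promoters came from RefSeq (GRCm38.p6); 1 further motif was searched and is not reported here. Protein sequences were not used here. Alternatives covered the filter, probe set choice, array scaling, weights, blocks, covariates, sham codes and single tumours left out.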

Additional observations from a re-analysis of the deposited data

Results flagged for a closer look

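Within the dose groups, 120 sets of values (38 genes and 2 class means in 3 groups) were searched for a tumour lying far from the rest by Dixon's ratio, and 12 held one. Chance gives about 1 in 20 for independent, normally distributed values. These sets hold correlated genes of the same tumours, and H2-M2 lay near its floor in most of them. An excess over chance can therefore not be read from this count. H2-M2 had a high tumour in each dose group, 7.616 in 10 cGy replicate 2 (next 5.746), 6.41 in 30 cGy replicate 9 (next 5.252) and 8.542 in 80 cGy replicate 7 (next 4.73). In 10 cGy replicate 1, H2-M9 was highest of its group at 9.026 (next 6.857), as was H2-Q2 at 6.384 (next 6.032). In 80 cGy replicate 1, H2-K1 was lowest at 9.319 (next 10.243) and H2-Ea lowest at 9.708 (next 10.011). The same tumour had the lowest Nlrc5 of all 45. Erap1 was highest in 30 cGy replicate 9 at 9.185 (next 8.486). In 30 cGy replicate 10, H2-T24 was lowest at 5.699 (next 6.696) and Tapbp lowest at 9.659 (next 10.487). H2-T24 was also lowest in 80 cGy replicate 5 at 6.383 (next 7.127). Pdia3 was lowest in 10 cGy replicate 5 at 11.405 (next 11.708). No member differed among the 3 doses (0 at an adjusted p under 0.05 by limma, 0 at an unadjusted p under 0.05).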

How the results depend on the processing

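No member was called under any alternative or test (0 in each); the lowest adjusted p of a named member difference was 0.1351. Over all genes, the replicate block, which pairs tumours by repeat number, gave 6 calls for Si minus sham and 1 at 80 cGy. Array weights gave 30 calls at 80 cGy, 2 for the F test over 4 groups and 25 for the slope. With single tumours left out, calls ran from 0 to 1 for Si minus sham (1 without 10 cGy replicate 5 or sham replicate 12), 80 cGy minus sham (1 without 80 cGy replicate 7) and the slope (1 without 80 cGy replicate 2 or 7), and were 0 for the others. Same-numbered tumours had r of -0.521 to 0.34 between deviations from group means. The labels state no pairing by these numbers, and such r cannot tell whether there was one. Class medians for Si minus sham ranged from -0.063 to -0.0008 (class I) and from -0.037 to 0.34 (class II) under the other settings, and from -0.079 to 0.012 and from 0.026 to 0.18 with single tumours left out, so that neither kept its sign throughout. Signs of small Si minus sham differences turned as follows; the cause was not tested. With sham code 6 alone they were 0.4597 for Ctss, 0.1727 for Ifi30, 0.0797 for Erap1, 0.0639 for Psmb10, 0.0388 for Tap2, 0.0026 for H2-DMa and -0.0846 for H2-K1. With sham code 5 alone they were 0.1207 for Tap1, 0.0408 for Nlrc5, -0.0696 for H2-Aa and -0.0413 for H2-Eb1. With the replicate block they were 0.0623 for Tap1, -0.137 for H2-Aa and -0.093 for H2-Eb1. With array weights they were 0.0615 for Tap1, 0.0053 for Nlrc5 and 0.0037 for Tap2. With the array component, chosen after seeing the data, they were 0.0263 for Ctss, 0.0327 for Tap2 and -0.0038 for Ciita. Without the 10 muscle- or fat-rich tumours, also chosen after seeing the data, they were 0.0852 for H2-DMa, 0.0288 for Tap1 and 0.0252 for Ctss. With single tumours left out they ran from -0.0798 to 0.0594 for Tap2, -0.0856 to 0.0528 for H2-DMa, -0.0994 to 0.0333 for Tap1, -0.0187 to 0.1162 for Ciita and -0.1885 to 0.0086 for Ctss. The r of Irf1 with Ciita turned to -0.0762 without its 2 farthest tumours and to -0.0038 on a common median. The r of Nlrc5 with Ciita lost its call under 5 settings, with 0.28 to 0.30. Each named difference or slope was estimated again under each setting other than leaving out tumours. Of these estimates 380 kept the sign of the main fit and 23 reversed it.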
